A study of Mus musculus with 4 samples.

Results

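The neurons described here form cluster 97 of a single-nucleus RNA-sequencing study of the mouse posterior hindbrain, which the authors' annotation labels 97: Gfral/Sctr. Its members are the nuclei that passed the authors' quality control and carry that label, 101 of 12539 neurons and of 39461 kept nuclei. The dissected tissue contained the area postrema (AP) and the nucleus of the solitary tract (NTS), and 4 libraries were made, 2 from control mice (control 1 and 2) and 2 from AgRP-Gq;POMC-Gi mice (AgRP-Gq;POMC-Gi 1 and 2). The latter carried AgRP-IRES-Cre+/-, hM3DGqfl/-, POMC-Dre+/- and hM4DGifl/-, that is, an activating receptor for clozapine N-oxide (CNO) expressed from the Rosa26 locus in cells with Cre from the Agrp gene, and an inhibitory one in cells with Dre recombinase driven by POMC. Controls, labelled WT, lacked AgRP-IRES-Cre and POMC-Dre, per the study's methods, but carried both receptor transgenes, the activating one behind a lox-flanked and the inhibitory one behind a rox-flanked stop. Per the methods all were adult mice of both sexes on a C57BL/6 background, and all received CNO at 3 mg per kg and were killed 1 h later in the absence of food. Per the methods, samples of a condition were pooled from 2 mice a group, and which mouse went into which library is not given in the sources used here. The library is therefore the replicate here, and no more than 2 animals stand behind each group by that number. The p-values measure the spread between libraries, which may be technical but also takes in sex, in which the libraries differed as given below.

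GFRAL is the receptor of GDF15, a circulating cytokine of cellular stress that reduces food intake and is associated with nausea. It is a distant member of the receptor family for glial cell line-derived neurotrophic factor (GDNF) and signals through the receptor tyrosine kinase RET. In the brain it is known almost solely from neurons of the AP, a sensory circumventricular organ whose vessels lack a tight blood-brain barrier, and of the adjoining NTS. SCTR is the G protein-coupled receptor of the gut hormone secretin, and *Ddc* encodes aromatic L-amino acid decarboxylase, the enzyme that makes dopamine from L-DOPA and serotonin from 5-hydroxytryptophan. The label of the cluster therefore joins receptors for a pair of blood-borne signals. The counts hold no positions, so the place of these nuclei within the tissue was not tested.

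The promoters of *Gfral* and *Scn11a* are shown because most UMIs of these genes in neurons lay in the cluster, in nuclei that scarcely overlapped, as described further on. Both were read from a RefSeq table on GRCm38.p6 and run from 250 bases before to 50 bases after the start of the gene, on the strand of the gene, with GGAA or its complement TTCC, the core letters bound by ETS factors, in capitals. The *Gfral* window is chr9:76213608-76213907 on the minus strand and the *Scn11a* window is chr9:119825407-119825706, also on the minus strand.
Gfral: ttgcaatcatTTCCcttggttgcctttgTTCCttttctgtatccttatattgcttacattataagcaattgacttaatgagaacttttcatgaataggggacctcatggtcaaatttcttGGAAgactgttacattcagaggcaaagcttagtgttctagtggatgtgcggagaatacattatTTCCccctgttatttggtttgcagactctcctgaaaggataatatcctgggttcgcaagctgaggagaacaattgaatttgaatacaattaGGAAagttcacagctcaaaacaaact
Scn11a: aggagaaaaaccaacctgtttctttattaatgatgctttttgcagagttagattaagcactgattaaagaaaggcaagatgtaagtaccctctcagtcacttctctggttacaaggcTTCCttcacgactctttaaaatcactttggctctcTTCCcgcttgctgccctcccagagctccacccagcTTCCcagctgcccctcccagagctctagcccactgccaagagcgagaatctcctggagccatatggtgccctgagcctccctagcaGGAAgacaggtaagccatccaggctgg
The core occurs 5 times in the *Gfral* window and 4 times in that of *Scn11a*, but 96.0% of 32851 promoters of this length hold it on either strand. The longer ETS letters CCGGAAG, found in 8.86% of promoters, occur in neither. AGGTCA, part of the element of oestrogen receptors (16.3% of promoters), and TGACG, part of the cAMP response element (20.8%), are also not in these windows on either strand, nor are its full letters TGACGTCA (1.79%) and the TATA box TATAAA (13.6%). The E-box CAGCTG, in 16.3% of promoters, occurs once in the *Scn11a* window and not in that of *Gfral*. Among the 30 leading genes 25 have an entry in the table, and the promoter of *Sctr* was not analysed here.

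Nuclei of the cluster had a median of 6919 UMIs (unique molecular identifiers, counts of captured RNA molecules; range, 1767 to 30066) and 3021 detected genes, compared with 8712 UMIs in other neurons and 2460 in oligodendrocytes. In the order control 1, control 2, AgRP-Gq;POMC-Gi 1 and AgRP-Gq;POMC-Gi 2, used throughout, the cluster held 7, 17, 40 and 37 nuclei and 67701, 136730, 327538 and 283213 UMIs, so that control values rest on far fewer molecules. No barcode of the cluster was kept in a second library, whereas 168 of 39293 kept barcodes were. A UMI of *Xist* was found in 66.8%, 48.3%, 64.6% and 2.17% of neurons, so AgRP-Gq;POMC-Gi 2 stood apart as nearly all male. The transthyretin gene *Ttr*, a product of the choroid plexus, reached 14.8, 1346, 6.11 and 710 CPM (the UMIs of a gene scaled to a common total, counts per 1e6 UMIs) in the cluster and 1.46, 1001, 7.55 and 579 CPM in the other neurons of the same libraries. The summed level of the 6 oligodendrocyte markers was 901, 483, 144 and 268 CPM in the cluster and 307, 249, 146.2 and 184 CPM in other neurons, and all 6 had a UMI. Markers at 0 in the cluster were *Cspg4* and *Olig2* of precursors, *Tmem119* of microglia, *Cldn5* of vessels and *Foxj1* of ependyma. The 5 neuronal markers summed to 10490 to 12290 CPM, compared with 12240 to 13060 CPM in other neurons, although *Rbfox3* had a UMI in 34.7% of the nuclei compared with 75.9% of other neurons.

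*Gfral* stood at 192, 322, 434 and 318 CPM in the 4 libraries of the cluster and at 2.06 ± 0.322 CPM (mean ± SD, n = 4 libraries) in other neurons. Every library of the cluster was above every library of other neurons. The mean log2 ratio, computed within each library on CPM + 5, was 5.45 ± 0.54 (SD, n = 4), the highest of all genes. *Sctr* reached 325, 43.9, 183 and 120 CPM compared with 0.756 CPM in other neurons, a log2 ratio of 4.60 ± 1.18. Its lowest library, control 2, held 5 UMIs in 2 nuclei besides a nucleus that also had *Gfral*. *Ddc* was more even than both label genes at 428, 439, 461 and 339 CPM compared with 11.1 CPM, a log2 ratio of 4.73 ± 0.33. Because clusters were built from expression, comparisons of the cluster with other neurons are descriptions and carry no test.

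A UMI of *Ddc* was found in 79.2% of the nuclei, one of *Sctr* in 36.6% and one of *Gfral* in 33.7% (exact 95% interval, 24.6 to 43.8%). In other neurons the shares were 4.22%, 0.450% and 1.68%, and in oligodendrocytes, which should lack the receptors, 10.2%, 0.0535% and 0.143%. Such intervals cover counting error only. With each nucleus thinned to 2000 UMIs (99 of the 101 nuclei were deep enough), *Gfral* was found in 24.2% of the cluster, 0.464% of other neurons and 0.140% of oligodendrocytes, and *Sctr* in 26.3%, 0.130% and 0.00877%. *Ddc* gave 49.5%, 1.60% and 8.35%, so that its share in oligodendrocytes was above that in other neurons.

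Across the transcriptome, 67 of 4438 genes found in at least 25% of the nuclei (1.51%) were at least 4-fold higher than in other neurons in the mean and higher in all 4 libraries. Of 5455 genes found in at least 25% of other neurons, 156 (2.86%) were at least 4-fold lower. Besides the label genes, *Ddc* and the transcripts 4930469K13Rik and 1700042O10Rik, which are described with their loci further on, the highest were *Etv1*, an ETS transcription factor, at 103, 249, 305 and 350 CPM (log2 ratio, 4.24 ± 0.90), and *Rnf220*, a ubiquitin ligase with a role in hindbrain development, at 3383, 2384, 2607 and 2814 CPM (4.12 ± 0.35). *Rnf220* had a UMI in all 101 nuclei compared with 39.9% of other neurons, whereas *Etv1* was found in 46.5%. *Npff*, which encodes the RFamide neuropeptide FF precursor, stood at 88.6, 176, 162 and 141 CPM compared with 4.20 CPM (3.96 ± 0.35), and the receptor gene *Npffr2* at 73.9, 87.8, 113 and 60.0 CPM compared with 5.35 CPM (3.07 ± 0.50). The peptide gene and this receptor gene were thus high in the same cluster.

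**Figure D1:**
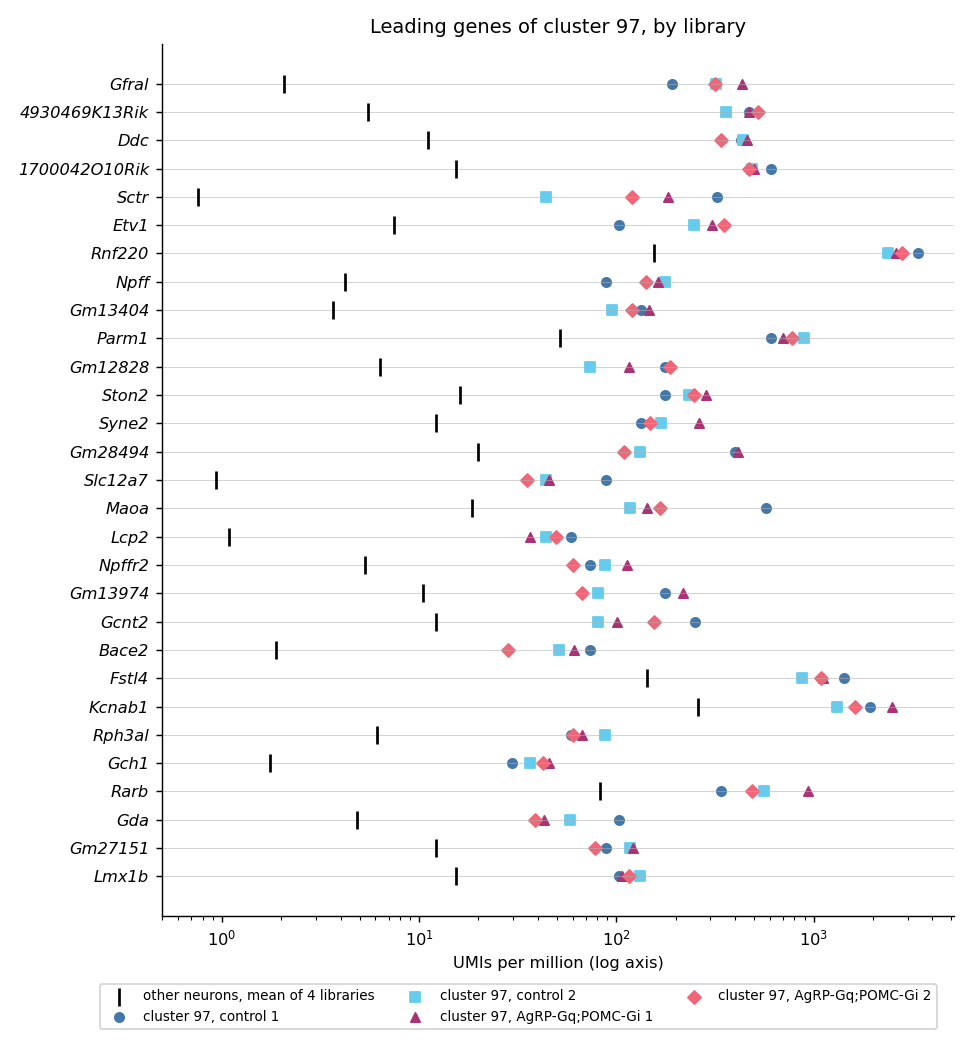
Levels of leading genes of cluster 97 in CPM on a log axis, with 1 symbol for each of the 4 libraries and a black tick for the mean of other neurons. All symbols lie to the right of their tick, from *Gfral* (192 to 434 CPM compared with 2.06) down to *Lmx1b* (103 to 132 CPM compared with 15.4), and *Sctr* and *Maoa* spread most between libraries.

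The leading genes also included membrane and vesicle proteins, among them *Ston2*, an endocytic adaptor (log2 ratio, 3.49 ± 0.25), *Slc12a7*, a potassium-chloride cotransporter (3.22 ± 0.59), *Kcnab1*, a potassium channel subunit (2.76 ± 0.31), *Rph3al*, a regulator of exocytosis (2.71 ± 0.27), and *Bace2*, an aspartyl protease (3.02 ± 0.55). *Parm1* (3.70 ± 0.18), *Syne2*, which encodes a nuclear envelope protein (3.37 ± 0.43), *Gcnt2*, a glycosyltransferase (3.03 ± 0.55), *Fstl4* (2.91 ± 0.31), the retinoic acid receptor *Rarb* (2.67 ± 0.52) and *Gda*, which encodes guanine deaminase (2.65 ± 0.67), were further coding genes. Of the 30 leading genes 6 were not protein coding, and several shared their locus with another one of the list. On GRCm38 (GENCODE M21), 1700042O10Rik (chromosome 11, 11868123 to 11885321, plus strand; 4.70 ± 0.24) lies antisense within *Ddc* (11814101 to 11898144, minus strand). 4930469K13Rik (chromosome 11, 33973961 to 34098554, minus strand; 5.45 ± 0.27) spans *Lcp2* on the other strand (3.08 ± 0.22) and overlaps *Kcnip1* on its own strand. Gm12828 (3.58 ± 0.61) lies antisense within *Rnf220*, and Gm28494 (3.24 ± 1.05) and Gm13974 (3.06 ± 0.79) overlap on opposite strands of chromosome 2. Gm27151 (2.61 ± 0.42) lies antisense within *Trpm3*, and Gm13404 (3.89 ± 0.20) overlaps no annotated gene. Whether the counting used strand is not given in the sources used here, so reads of such pairs may not be fully separated.

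For genes grouped by role, a gene found in at least 5% of the cluster or of other neurons counts as measured, and as higher or lower when its mean differed at least 2-fold and all 4 libraries went the same way. Of 12538 such genes, 365 (2.91%) were higher, 1244 (9.92%) were lower and the median log2 ratio was -0.18, so that lower genes were the more common ones in general. Genes found in under 5% of other neurons were measured only through the cluster, so counts of higher genes in a list are descriptions.

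Among the receptors of the GDNF family and their partners, 2 of 6 measured genes were higher, *Gfral* and *Ret*, and 1 was lower, *Gfra4*, the receptor of persephin. *Ret* stood at 73.9, 43.9, 61.1 and 67.1 CPM compared with 10.4 CPM (log2 ratio, 2.09 ± 0.26) and had a UMI in 28.7% of the nuclei compared with 8.36% of other neurons. All 4 libraries of the cluster were thus above other neurons, and the co-receptor was less confined to the cluster than *Gfral*. The co-receptors *Gfra1* (-0.25 ± 1.15) and *Gfra2* (-0.27 ± 0.30), and *Ncam1* (0.26 ± 0.17), did not meet the rule. None of the 5 ligands, *Gdf15*, *Gdnf*, *Nrtn*, *Artn* and *Pspn*, was measured, and *Gdf15* had 0 UMIs in 101 nuclei, which allows a share of nuclei with a UMI of up to 3.59% by the exact interval. Of 15 measured adaptors and targets of RET signalling, 2 were higher, the adaptors *Gab1* (2.07 ± 0.75) and *Shc1* (1.21 ± 0.32), and 2 were lower, *Shc3* (-1.44 ± 0.59) and the ETS factor gene *Etv4* (-1.13 ± 0.50). *Gab1* was found in 28.7% of the cluster and 7.35% of other neurons, but in 61.4% of oligodendrocytes. It stood at 118, 29.25, 45.8 and 67.1 CPM, highest in control 1, as were the oligodendrocyte markers. The part of oligodendrocyte RNA in its level was not tested.

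Receptors of gut and circulating peptides were mostly not higher. *Sctr* was the single higher gene of the 7 measured class B receptors, while *Adcyap1r1*, the PACAP receptor (-2.29 ± 0.64), and *Crhr1* (-1.81 ± 0.69) were lower. *Crhr2*, a receptor of corticotropin-releasing factor and urocortins, had a UMI in 16.8% of the nuclei compared with 0.466% of other neurons, but was at 0 in control 2 (14.8, 0, 27.5 and 42.4 CPM). *Glp1r*, the receptor of glucagon-like peptide 1, was found in 9.90% of nuclei compared with 1.84% and was at 0 in control 1 (0, 7.31, 18.3 and 14.1 CPM). *Calcr*, the calcitonin receptor of other AP neurons, had a UMI in 1 nucleus and *Gipr* in none. Of 11 measured receptors for other circulating signals, 3 were higher, the oestrogen receptor *Esr1* (148, 95.1, 159 and 138 CPM compared with 29.9 CPM; log2 ratio, 1.98 ± 0.35), the angiotensin receptor *Agtr1a* (2.70 ± 1.39, in 8 nuclei) and the neuropeptide Y receptor *Npy1r* (1.19 ± 0.64), and the leptin receptor *Lepr* (-1.82 ± 0.37) and *Cckbr* (at 0 in all libraries) were lower. The calcium-sensing receptor *Casr* was found in 17.8% of nuclei compared with 0.434% of other neurons, at 0, 65.8, 51.9 and 28.3 CPM.

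Receptors of transmitters were more often lower. Of 20 measured receptors of monoamines, acetylcholine, opioids and cannabinoids, 13 were lower, with a median log2 ratio of -1.42, or -1.37 with *Htr2a*, at 0 in the cluster, set to its bound of 3 counts over the group. They included the muscarinic receptors *Chrm3* (-4.76 ± 1.60) and *Chrm2* (-3.96 ± 0.68), the serotonin receptors *Htr2c* (-4.02 ± 2.69) and *Htr7* (-2.56 ± 1.78) and the adrenoceptor *Adra1a* (-2.47 ± 1.11). The 2 higher members, *Chrna3* (29.5, 58.5, 39.7 and 10.6 CPM; 2.21 ± 0.92) and *Chrnb4* (1.69 ± 0.79), encode subunits that assemble into the ganglionic type of nicotinic receptor and lie in the same gene cluster of the genome. Among 31 ionotropic glutamate, GABA-A and glycine receptor subunits, 12 were lower (median, -0.78), with *Grin2a* (-3.28 ± 1.15), *Glra2* (-3.03 ± 0.54) and *Gabrb2* (-2.38 ± 1.96) at the bottom, and only *Gria1* was higher (1.09 ± 0.16).

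Genes of catecholamine synthesis and handling were mostly higher, 6 of 8 measured (75.0% compared with 2.91% of all genes), with none lower and a median log2 ratio of 2.45. However, *Ddc*, *Gch1*, *Th*, *Dbh* and *Maob* were found in only 4.22%, 1.19%, 2.11%, 0.844% and 2.65% of other neurons. They thus counted as measured only through the cluster, where they are high, so the share of higher genes is no support. The decarboxylase *Ddc* was joined by *Gch1*, which makes the pterin cofactor of tyrosine hydroxylase (29.5, 36.6, 45.8 and 42.4 CPM compared with 1.76 CPM; 2.68 ± 0.28), by *Th*, tyrosine hydroxylase (29.5, 73.1, 27.5 and 38.8 CPM compared with 3.11 CPM; 2.46 ± 0.64), and by *Dbh*, dopamine beta-hydroxylase (14.8, 21.9, 51.9 and 35.3 CPM compared with 1.15 CPM; 2.44 ± 0.61). The degrading enzymes *Maoa* (576, 117, 144 and 166 CPM; 3.14 ± 1.02) and *Maob* (1.00 ± 0.19) were also higher, and for *Maoa* control 1 was far above the other libraries. The vesicular transporter *Slc18a2* did not differ by the rule (0.10 ± 0.87), *Pnmt*, which makes adrenaline, had no UMI, and *Slc6a2*, the noradrenaline transporter, was found in 5 nuclei. *Th* and *Dbh* were each found in 22 of 101 nuclei (21.8%) and together in 6. Genes of serotonin and histamine synthesis (*Tph1*, *Tph2*, *Hdc*) and the serotonin transporter gene *Slc6a4* had no UMI in the cluster.

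Of the vesicular glutamate transporters *Slc17a6* and *Slc17a8* were higher, and genes for GABA and glycine were mostly lower. *Slc17a6*, the vesicular glutamate transporter VGLUT2, stood at 236, 241, 217 and 205 CPM compared with 75.1 CPM (log2 ratio, 1.52 ± 0.14) and had a UMI in 68.3% of the nuclei. *Slc17a8*, which encodes VGLUT3, stood at 59.1, 21.9, 76.3 and 31.8 CPM compared with 2.53 CPM (2.67 ± 0.71), and its share of nuclei was 23.8% compared with 1.71%. *Slc17a7*, which encodes VGLUT1, had a UMI in 1 of 101 nuclei compared with 3.01% of other neurons and was below the detection minimum. Lower were *Slc32a1*, the vesicular GABA transporter (-1.34 ± 0.69), *Gad1* (-2.51 ± 0.80) and the glycine transporter *Slc6a5*, which had no UMI in 101 nuclei although 33.0% of other neurons had one. *Gad2*, however, was found in 18.8% of nuclei (-0.50 ± 0.91). Of 23 measured members of a list of neuropeptide precursors and processing genes, which did not hold *Npff* (described above), 6 were higher and 2 lower. *Grp*, gastrin-releasing peptide (29.5, 65.8, 36.6 and 98.9 CPM compared with 1.78 CPM; 3.08 ± 0.55), and *Cartpt* (163, 161, 144 and 60.0 CPM; 2.70 ± 1.04) led the list, each in a minority of nuclei (13 and 17 of 101). *Nucb2* (1.82 ± 0.24) and the prohormone convertases *Pcsk1* (1.78 ± 0.38) and *Pcsk2* (1.30 ± 0.44) were higher and widespread, *Npy* (1.02 ± 1.38) rested on control 1, and *Penk* (-1.31 ± 1.17) and *Nppc* (-1.44 ± 0.54) were lower.

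Among 20 measured lineage transcription factors, 7 were higher and 11 lower. Among the higher ones were *Lmx1b* (log2 ratio, 2.55 ± 0.24), *Tfap2b* (2.14 ± 0.66), *Meis2* (1.36 ± 0.49), *Prrxl1* (1.31 ± 0.43), *Tlx3* (1.16 ± 0.04) and *Etv1*. Factors of inhibitory and other hindbrain lineages were lower, among them *Pax2* (0 of 101 nuclei compared with 26.7% of other neurons), *Ebf1* (-3.89 ± 2.03), *Ebf3* (-3.86 ± 0.54), *Ebf2* (-3.57 ± 0.76) and *Onecut2* (at 0), and the list's median was -1.50, or -1.10 with genes at 0 set to their bound. Of 11 measured *Hox* genes, which encode position along the body axis, *Hoxc4* (73.9, 102, 113 and 138 CPM; 1.26 ± 0.22) and *Hoxc5* (1.65 ± 0.31) were higher and none was lower.

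Sodium, calcium, HCN and TRP channel genes were higher in 5 and lower in 5 of 33 cases. *Scn11a* encodes the sodium channel Nav1.9, best known from nociceptors of the dorsal root ganglia. It stood at 118, 65.8, 67.2 and 42.4 CPM in the cluster and at 0.125 CPM in other neurons (log2 ratio, 3.85 ± 0.57), with a UMI in 23 of 101 nuclei (22.8%) compared with 0.129%. All 4 libraries were far above other neurons. *Trpm3* (2.29 ± 0.36), *Trpc7* (2.19 ± 0.65), *Cacna2d1* (1891, 1814, 2394 and 2030 CPM; 2.02 ± 0.14) and *Asic4* (1.76 ± 0.40) were also higher, whereas *Cacna2d3* (-2.81 ± 0.85), *Scn1a* (-1.32 ± 0.30) and *Scn9a* (-1.28 ± 0.43) were among the lower ones. The lowest genes of all were *Nxph1*, a neurexin ligand (-5.10 ± 1.54), and *Chrm3*, followed by *Zfp385b* (-4.61 ± 1.30), *Slc6a5* (-4.15 ± 0.10) and the proteoglycan gene *Gpc5* (-4.10 ± 0.98). *Nxph1* had a UMI in 8 of 101 nuclei compared with 66.6% of other neurons. It was at 0 in control 1, and its log2 ratios were -7.365, -4.59, -3.89 and -4.54 in the 4 libraries. *Zfp385b* was also at 0 in control 1 (-6.16, -3.05, -4.95 and -4.30). *Chrm3* was at 0 in both controls (-6.07, -6.22, -3.27 and -3.48). The order of these genes thus rests in part on the few nuclei of the controls. *Rgs6*, *Adarb2*, *Arhgap18*, *Ankfn1*, *Prkg1* and Gm20713 completed the 15 lowest, between -3.71 and -3.87 on the log2 scale (SD, 0.83 to 2.36). *Adarb2* and *Rgs6* were at 0 in the 7 nuclei of control 1, with log2 ratios of -7.15 and -6.29 there, and lay between -1.92 and -3.29 and between -2.30 and -3.34 in the other libraries.

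Although the label names both receptors, *Gfral* and *Sctr* hardly occurred in the same nucleus. Of the 101 nuclei, 33 had UMIs of *Gfral* only, 36 of *Sctr* only, 1 of both and 31 of neither. A *Sctr* UMI was found in 1 of 34 nuclei with *Gfral* (2.94%; exact 95% interval, 0.0744 to 15.3%) and in 36 of 67 without it (53.7%; 41.1 to 66%). The nuclei with *Gfral* only held up to 26 UMIs of it and 284 in all, and those with *Sctr* only up to 10 and 121 in all. At least 3 UMIs were found in 29 of 34 nuclei with *Gfral* and in 21 of 37 with *Sctr*. The remaining nuclei were assigned on fewer UMIs, some on a single one. Median depth was 7063 UMIs with *Gfral*, 8362 with *Sctr* and 6678 with neither. After thinning to 2000 UMIs, 24 nuclei had *Gfral*, 26 had *Sctr* and 0 of 99 had both. Each library held all 3 kinds, with 1, 5, 15 and 12 nuclei of *Gfral* only, 4, 2, 19 and 11 of *Sctr* only and 2, 9, 6 and 14 of neither. This split was chosen after the values had been seen and is described without a test.

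**Figure D2:**
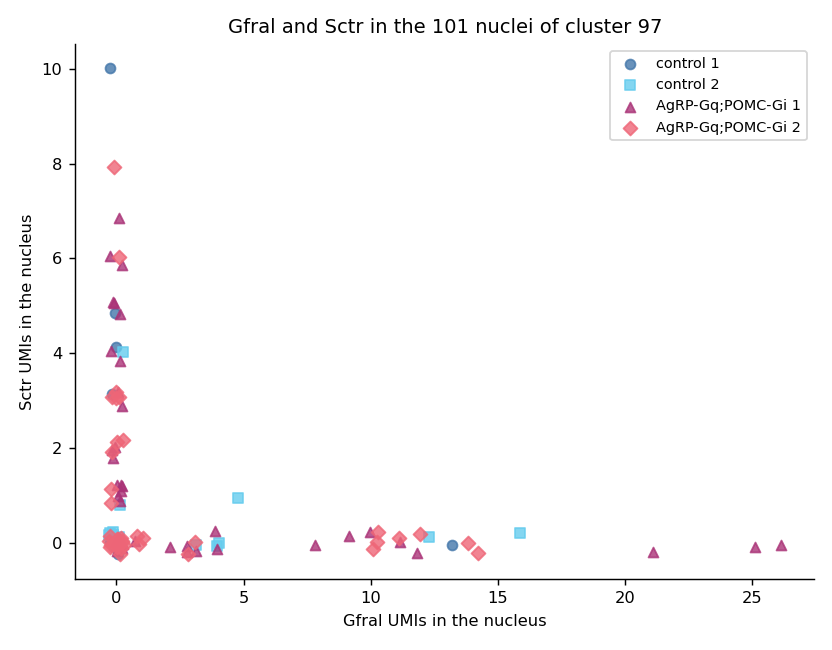
UMIs of *Gfral* (x axis) and of *Sctr* (y axis) in each of the 101 nuclei of cluster 97, with a symbol for each library and a small random shift of the points so that they can be told apart. The nuclei lie along the axes, up to 26 UMIs of *Gfral* and 10 of *Sctr*, and 1 nucleus of control 2 has both.

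Other genes were spread unevenly over the kinds as well, and are named here by the size of the ratio in the 2 AgRP-Gq;POMC-Gi libraries, which alone held at least 5 nuclei of both kinds. Of 5655 genes found in at least 25% of either kind, 128 were at least 4-fold higher in *Gfral* nuclei and 167 in *Sctr* nuclei. *Gfral* nuclei were led by *Kcnq5*, a potassium channel (29 of 33 nuclei compared with 9 of 36), *Sntb1*, a syntrophin (21 compared with 1), *Etv1* (31 compared with 4) and Nell1os (17 compared with 2), followed by *L3mbtl4*, *Sdk2*, *Sema3e* and *Ntng1*. The log2 ratio of *Kcnq5* was 3.48 in AgRP-Gq;POMC-Gi 1 and 8.64 in AgRP-Gq;POMC-Gi 2, and that of *L3mbtl4* was 2.72 and 6.83, whereas *Sntb1* (5.39 and 6.26), *Etv1* (5.18 and 5.11) and Nell1os (4.60 and 5.00) were more alike in both. In AgRP-Gq;POMC-Gi 1 alone these 3 were above *Kcnq5*. Thinned to 2000 UMIs, *Etv1* was found in 66.7% of *Gfral* nuclei, 2.86% of *Sctr* nuclei and 20.0% of those with neither. *Casr* was found in 14 of 33 *Gfral* nuclei, in 3 of 36 *Sctr* nuclei and in none of 31 with neither. By library, it was in 3 of 5 *Gfral* and 0 of 2 *Sctr* nuclei of control 2 and in 9 of 15 and 1 of 19 of AgRP-Gq;POMC-Gi 1, but in 2 of 12 and 2 of 11 of AgRP-Gq;POMC-Gi 2. The co-receptor *Ret* was found in 16, 9 and 3 nuclei, and *Gch1* in 16, 6 and 4. In AgRP-Gq;POMC-Gi 1, however, *Ret* was in 5 of 15 *Gfral* and 7 of 19 *Sctr* nuclei (log2 ratio of CPM + 5, 0.26), and in AgRP-Gq;POMC-Gi 2 it was in 7 of 12 and 0 of 11 (5.28). The log2 ratio of *Gch1* was 0.69 and 4.54 in these libraries, so for both genes the pooled difference rested mostly on AgRP-Gq;POMC-Gi 2. *Ret* had thus a UMI in 48.5% (30.8 to 66.5%) of the nuclei with *Gfral* only.

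*Sctr* nuclei were led by *Etl4* (24 of 36 compared with 3 of 33), Gm28494 (24 compared with 2), *Caln1*, which encodes a calneuron (22 compared with 1), D130009I18Rik (15 compared with 0) and *Fat1*, an atypical cadherin (14 compared with 1). *Scn11a* was found in 15 of 36 *Sctr* nuclei and 8 of 31 with neither, but in 0 of 33 *Gfral* nuclei, which allows a share of up to 10.6% by the exact interval. After thinning *Scn11a* was in 3 of 35 *Sctr* nuclei (8.57%), 5 of 30 with neither (16.7%) and 0 of 33 *Gfral* nuclei, so the order of the first 2 kinds turned. *Esr1* was found in 30 of 36 *Sctr* nuclei, 6 of 33 *Gfral* nuclei and 8 of 31 with neither, or in 45.7%, 6.06% and 6.67% after thinning. *Npff* (24 compared with 14), *Tfap2b* (25 compared with 11) and *Maoa* (21 compared with 9) leaned the same way, and after thinning *Npff* was in 42.9% of *Sctr* nuclei and 3.03% of *Gfral* nuclei. For *Npff* the libraries were unequal, with 12 of 19 *Sctr* and 8 of 15 *Gfral* nuclei in AgRP-Gq;POMC-Gi 1 and 8 of 11 and 3 of 12 in AgRP-Gq;POMC-Gi 2. Found in all kinds were *Rnf220*, in every nucleus, *Ddc* (28 of 33, 31 of 36 and 20 of 31), *Lmx1b* (14, 18 and 15), *Slc17a6* (23, 24 and 22) and *Th* (7, 6 and 9). The level of *Ddc*, however, was 668 and 588 CPM in *Gfral* nuclei of the AgRP-Gq;POMC-Gi libraries and 363 and 168 CPM in *Sctr* nuclei, and after thinning it was found in 57.6%, 37.1% and 53.3% of the kinds. *Th* was left after thinning in 0 of 33, 0 of 35 and 4 of 30 nuclei.

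**Figure D3:**
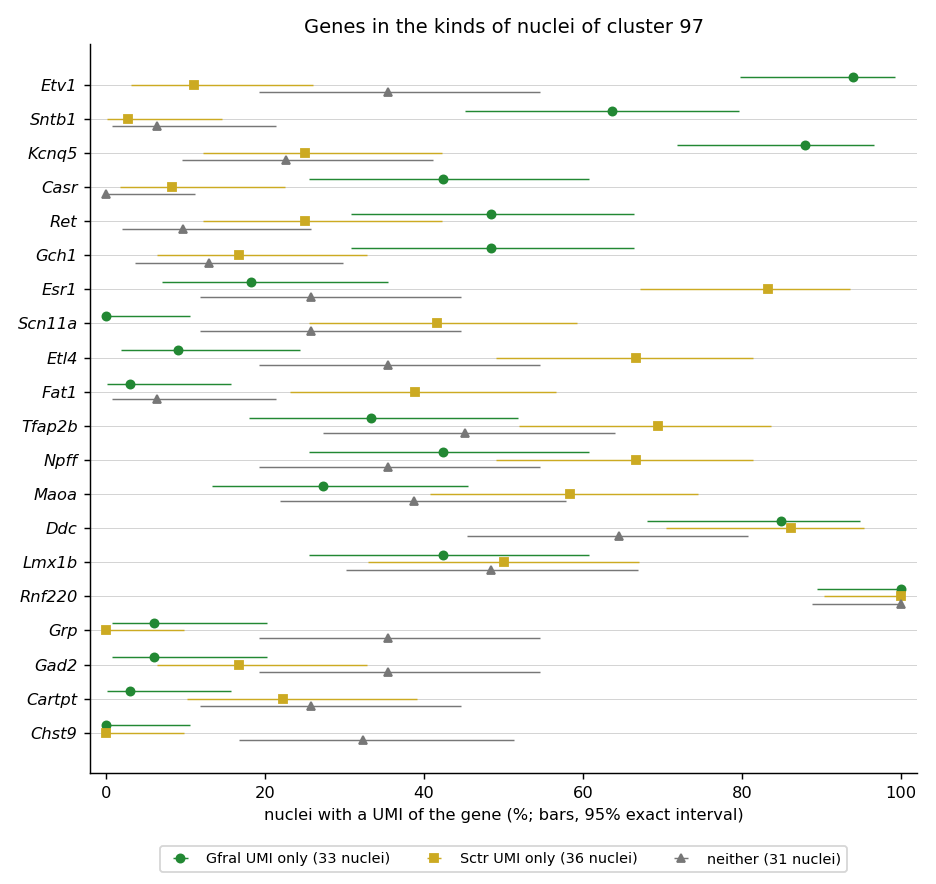
Share of nuclei with a UMI of each gene in percent, with exact 95% intervals as bars, for the 33 nuclei with *Gfral* only, the 36 with *Sctr* only and the 31 with neither. The intervals of *Gfral* and *Sctr* nuclei are apart for *Etv1*, *Sntb1*, *Kcnq5*, *Casr*, *Esr1*, *Scn11a*, *Etl4*, *Fat1* and *Tfap2b*. They overlap for the other genes, among them *Ddc* and *Lmx1b*. Intervals cover counting error over pooled nuclei only. The kinds and their leading genes were chosen after their values had been seen, so gaps between intervals are no test.

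Of 4504 genes found in at least 25% of nuclei with neither receptor, 22 were at least 4-fold above both other kinds. Genes found mainly in these nuclei included *Chst9*, a sulfotransferase (10 of 31 nuclei and 0 in both other kinds), *Grp* (11, compared with 2 and 0), *Dlk1* (9, compared with 1 and 0) and the subunit gene *Gabrb2* (10, compared with 1 and 2). *Gad2* was found in 11 of 31, compared with 2 of 33 and 6 of 36. In 9 of the 31 nuclei *Etv1* without *Esr1* was found, in 6 *Esr1* without *Etv1*, in 2 both, and in 14 neither of them. Across 8266 genes, the profile of *Gfral* nuclei correlated most with cluster 159: Casr/Slc6a2 (Pearson's r = 0.544, as a description across genes), that of *Sctr* nuclei with cluster 154: Olfr78/Calcr (0.456, and 0.435 with cluster 159), and that of nuclei with neither with cluster 76 (0.430).

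Beyond the cluster, *Gfral* had 542 UMIs in all neurons, of which 289 (53.3%) lay in cluster 97, and its level there (354.5 CPM over all libraries) was followed by 28.8 CPM in cluster 177: Foxp2/Ano2, 25.1 CPM in cluster 149: Cartpt/Arhgap28 and 14.0 CPM in cluster 154. At least 3 UMIs were found in 29 nuclei of the cluster and in 6 other neurons. *Sctr* likewise had 55.5% of 220 UMIs in the cluster, with 32.1 CPM in cluster 159 as the next level after 149.7 CPM, and *Scn11a* had 76.1% of 67 UMIs. *Npff* had only 18.8% of 653 UMIs in the cluster, but reached at least 3 UMIs in 18 nuclei of the cluster and 4 other neurons. *Ddc* was higher in the serotonergic cluster 167: Tph2/Slc6a4 (1017 CPM compared with 412 CPM), and *Etv1* (294 CPM) was exceeded by cluster 159 (394 CPM) and cluster 104: Gabra6/Fat2 (387 CPM).

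The cluster was most like cluster 159 (r = 0.527 over 8266 genes, on log2 levels centred over the 134 neuronal clusters), cluster 154 (0.506) and cluster 76 (0.491), while the median over the other clusters was -0.04. Those 3 also shared high *Rnf220* (95.8 to 100% of nuclei) and *Tfap2b* (55.8 to 67.9%), which was found in 49.5% of cluster 97. The clusters Rxfp1/Ebf2 (0.07) and 63: Ebf2/Th (0.01), in which *Th* was found in 29.3% and 46.8% of the nuclei, ranked 32 and 46, and *Ddc* was found there in 1.72% and 1.44%. Cluster 159 (50 nuclei) had *Casr* and *Slc6a2* each in 64.0% and *Etv1* in 78.0% of its nuclei, whereas *Slc6a2* was found in 4.95% of cluster 97. Cluster 154 (53 nuclei) had *Calcr* in 62.3% and *Olfr78* in 60.4%, compared with 0.990% and none in cluster 97. *Crhr2* had no UMI in any of the 5 compared clusters, but over all neuronal clusters it was highest in 129: Bnc2/Ebf2 (28.2 CPM compared with 27.0 CPM in cluster 97). Besides *Gfral*, genes well above all of the 3 most similar clusters included Gm28494, 4930469K13Rik, Gm13974, *Npff* (150.9 CPM compared with 9.33 to 17.5), *Megf11* and *Calb1* (129 CPM compared with 9.33 to 16.3). *Scn11a* (62.6 CPM compared with 0 to 2.92) and *Grp* (62.6 CPM compared with 0 to 2.33), found in fewer nuclei, were also well above them. Genes well below included *Tmem163* (19.6 CPM compared with 152 to 378), *Ankfn1*, Gm4876 and *Pcdh7*.

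**Figure D4:**
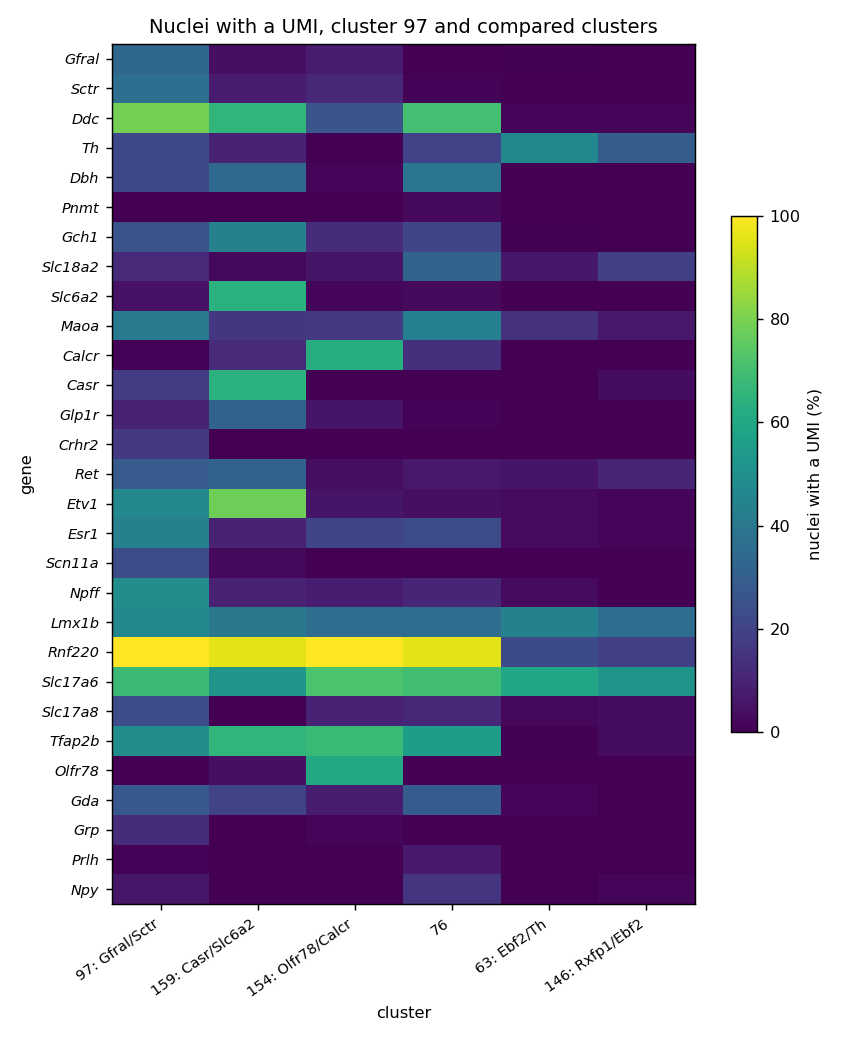
Heat map of the share of nuclei with a UMI (colour, 0 to 100%) for selected genes in cluster 97, the 3 most similar neuronal clusters (159, 154 and 76) and the *Th* clusters 63 and Rxfp1/Ebf2. *Ddc* is found in 79.2%, 66%, 26.4% and 70.0% of the first 4 and in 1.44% and 1.72% of the last 2, and *Gfral*, *Sctr*, *Scn11a* and *Npff* are highest in cluster 97.

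The cluster made up 0.283% (exact 95% interval, 0.114 to 0.583%) and 0.621% (0.362 to 0.993%) of the neurons in the control libraries and 1.08% (0.774 to 1.47%) and 1.02% (0.717 to 1.40%) in the AgRP-Gq;POMC-Gi libraries. Both AgRP-Gq;POMC-Gi values were above both controls, as they were in 33 of 134 neuronal clusters (24.6%), and in 18 clusters both were below. The ratio of the mean shares was 2.32, rank 7 among these clusters, but it was 3.70 without control 2 and 1.69 without control 1. In the 3 clusters most like it the AgRP-Gq;POMC-Gi shares were also above both controls, and the ratio was 4.68 in 154: Olfr78/Calcr, 3.77 in 159: Casr/Slc6a2 and 1.61 in cluster 76. The shares are given without a test, and an exact two-sided permutation test of 2 libraries against 2 could not give a p below 0.333. Neurons themselves made up 25.4% and 27.2% of kept nuclei in control libraries and 38.0% and 36.5% in AgRP-Gq;POMC-Gi libraries, and whether more cells or a different yield of nuclei lies behind the shares was not tested.

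AgRP-Gq;POMC-Gi and control libraries, all from mice given CNO, were compared on UMIs summed per library with edgeR's quasi-likelihood test. No library of mice without CNO was analysed here. It called 6 of 10897 genes at an adjusted p under 0.05 (0.0551%), 3 higher and 3 lower in AgRP-Gq;POMC-Gi mice, and 609 had an unadjusted p under 0.05. With library sizes in place of TMM factors 7 were called, 2 higher and 5 lower. At an unadjusted p under 0.05, 383 were higher and 226 lower with TMM factors and 216 and 335 with library sizes, and the median log2 fold change of all genes moved from 0.10 to -0.06. DESeq2 called 0 genes, with 67 at an unadjusted p under 0.05, and without either AgRP-Gq;POMC-Gi library edgeR also called 0 (208 and 257 at an unadjusted p under 0.05 without replicate 1 and 2).

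*Cadps2*, a priming factor of dense-core vesicles, stood at 148, 95.1, 540 and 459 CPM, with a UMI in 3 of 7, 3 of 17, 22 of 40 and 13 of 37 nuclei. Its log2 fold change was 2.28 ± 0.39 (SE; edgeR adjusted p = 0.00172), while the other neurons of the same libraries held 112, 161, 164 and 138 CPM. *Cadps2* was also found in 26 of 36 *Sctr* nuclei and 10 of 33 *Gfral* nuclei. The share of nuclei with a *Sctr* UMI was 57.1%, 17.65%, 47.5% and 29.7% in the 4 libraries, highest in control 1. Within nuclei with *Sctr* only, *Cadps2* had 10, 0, 122 and 115 UMIs in 4, 2, 19 and 11 nuclei. The part of these kinds in the group difference was not tested. In the controls, 8 of 10 and 8 of 13 UMIs of *Cadps2* lay in 1 nucleus of each library. *Prkg1*, a cGMP-dependent kinase, stood at 29.5, 14.6, 128 and 131 CPM (2.83 ± 0.60; edgeR adjusted p = 0.0420), in each library below the 784 to 922 CPM of other neurons. *Htr2c*, a serotonin receptor, had 0, 2, 97 and 40 UMIs (4.59 ± 0.70; edgeR adjusted p = 0.000523). In AgRP-Gq;POMC-Gi 1 all 97 lay in 2 nuclei (74 and 23) and in AgRP-Gq;POMC-Gi 2 a single nucleus held 33 of 40, so most of these UMIs lay in 3 nuclei. Without control 2 the edgeR adjusted p was 0.0501 for *Cadps2* and 0.366 for *Prkg1*, whose adjusted p was 0.0831 with library sizes.

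Lower in AgRP-Gq;POMC-Gi mice were *Plcl1*, a phospholipase C-like protein (901, 322, 104 and 98.9 CPM; -2.34 ± 0.38; edgeR adjusted p = 0.00118), *Sorcs1*, a sorting receptor (340, 373, 70.2 and 81.2 CPM; -2.08 ± 0.35; adjusted p = 0.00172), and *Ptgds*, prostaglandin D2 synthase, a gene abundant in meninges and oligodendrocytes (606, 336, 104 and 145 CPM; -1.71 ± 0.35; adjusted p = 0.0325). Groups did not overlap for any of the 3, but the group test had selected these genes, so this adds no support. The share of all tested genes without overlap is not given here. In control 1, however, 61 UMIs of *Plcl1* included 31 and 22 in single nuclei and 28 of 41 UMIs of *Ptgds* in 1 nucleus, and in control 2 a single nucleus held 34 of 44 UMIs of *Plcl1*. For *Sorcs1*, 18 of 23 UMIs in control 1 lay in 1 nucleus, and 21 and 13 of 51 in control 2 in single nuclei. Without control 1 the edgeR adjusted p was 0.0528 for *Plcl1* and 0.150 for *Ptgds*. The oligodendrocyte markers given above were also highest in the control libraries, and their part in the result was not tested. An interaction test of the same libraries called 4 genes (0.0367% of 10897) for which the group effect in the cluster differed from that in other neurons, *Htr2c*, *Sorcs1*, *Plcl1* and *Cadps2*.

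**Figure D5:**
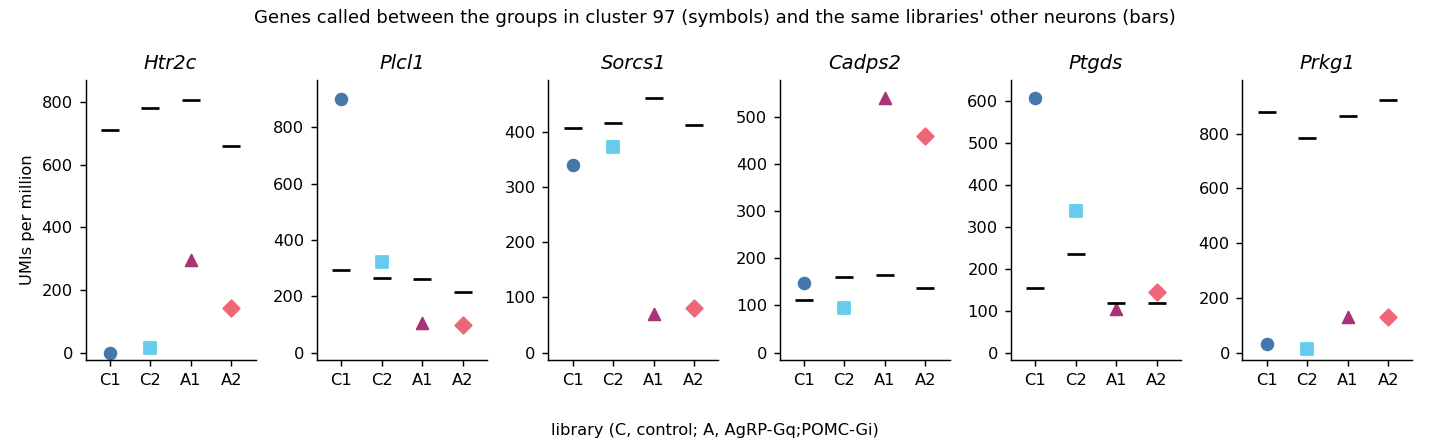
Levels in CPM of the 6 genes called between the groups, for control (C1, C2) and AgRP-Gq;POMC-Gi (A1, A2) libraries, with symbols for cluster 97 and black bars for the other neurons of the same library. For each gene, selected by the group test, the symbols of the groups do not overlap. *Htr2c*, *Prkg1* and *Sorcs1* remain below the bars in all 4 libraries.

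Neither the label genes nor *Ddc* were called between the groups, with log2 fold changes of 0.66 ± 0.35 (SE) for *Gfral* (edgeR adjusted p = 0.903), 0.19 ± 0.46 for *Sctr* and 0.05 ± 0.33 for *Ddc*. Of the 10 immediate early genes (IEGs) that the study used as marks of recent activity, 7 were detected well enough to be tested, and edgeR called 0, with 0 at an unadjusted p under 0.05 and 5 above 0 on the log2 scale. *Fos* had a UMI in 5 of 101 nuclei. *Gem*, a small GTPase, was the only IEG higher in the cluster than in other neurons, at 29.5, 36.6, 42.7 and 67.1 CPM compared with 4.95 CPM (log2 ratio, 2.25 ± 0.40), and its group difference was 0.81 ± 0.62 (SE; edgeR adjusted p = 0.972). Any IEG was found in 4 of 7, 10 of 17, 27 of 40 and 24 of 37 nuclei, or 57.1%, 58.8%, 67.5% and 64.9%, compared with 66.9%, 65.4%, 63.2% and 68.7% of other neurons.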

How the data were processed

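Nuclei were isolated from frozen hindbrain tissue, sorted by DRAQ5 staining and processed with the 10x Genomics 3′ kit. The deposited matrices hold raw UMI counts per gene and barcode, which the authors obtained with Cell Ranger 7.0.0 on GRCm38 (mm10) and processed with Seurat 4.3.0, per the submitters' processing notes. The authors filtered barcodes on UMIs, genes and mitochondrial share, ran a doublet detection, and clustered nuclei on an embedding from which IEGs had been removed. Their clusters and the passQC labels were used as deposited, and no doublet caller was run here. Their deposited table also holds per-nucleus UMI counts, gene counts and the mitochondrial percent, and UMI totals of the matrices equalled that table in all barcodes of the 4 libraries (11013, 11369, 10726 and 11195).

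UMIs were summed per library over cluster 97 and over all other neurons and divided by the total of all genes to give CPM. Log2 ratios were taken within each library with a pseudocount of 5 CPM, which understates the change of low genes. Groups were compared with edgeR 4.0.16 (quasi-likelihood test, TMM factors, genes found in 5% or more of the nuclei, Benjamini-Hochberg adjustment) in R 4.3.3, with the library as replicate, and the interaction with other neurons was tested with library as a term. The authors' program for mixed models over nuclei, nebula, was not used here. In simulated data with 200 of 10897 genes changed 4-fold, the group test called 57% of them with 3 false calls and the interaction test 44.5% with 1 false call. The changed genes were drawn from those with more UMIs, and all genes of the cluster were given the same spread between libraries. UMIs gathered in single nuclei were not simulated, so these rates may not hold for the real counts. Alternatives were DESeq2 1.42.0, library sizes without TMM factors, other gene filters, the replicate number as a block, other pseudocounts, thinning to 2000 UMIs and leaving out each library.

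Named are the 30 highest and 15 lowest genes by mean log2 ratio, members of gene lists by role, genes called by either test, the study's 10 IEGs, and the 3 most similar neuronal clusters with the *Th* clusters that the study sets beside it. *Megf11*, *Calb1*, *Tmem163*, Gm4876 and *Pcdh7*, and the genes that lead the *Gfral* and *Sctr* nuclei, were chosen after their values had been seen. A gene that the rule names is not reported here. The cluster and the lists were chosen with earlier results of these data known. Gene positions are those of GENCODE M21, matched by identifier for 32158 of 32285 genes. Descriptions were computed in Python 3.11.15 with pandas 2.3.3 and SciPy 1.17.1, and shares of nuclei have exact Clopper-Pearson intervals at the 95% level.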

Additional observations from a re-analysis of the deposited data

Results flagged for a closer look

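For 4 genes the difference between AgRP-Gq;POMC-Gi and control libraries in the *Gfral*/*Sctr* cluster was not the same as in the other neurons of the same libraries, by edgeR's test of the interaction. The effect in the cluster exceeded that in other neurons by 4.59 ± 0.70 (SE) on the log2 scale for *Htr2c* (adjusted p = 0.000932) and by 2.13 ± 0.36 for *Cadps2* (edgeR adjusted p = 0.00202). It was below that in other neurons for *Sorcs1*, with a log2 difference of -2.24 ± 0.36 (edgeR adjusted p = 0.00106), and for *Plcl1*, with -2.11 ± 0.35 (adjusted p = 0.00191). In other neurons the 4 libraries held 709, 781, 805 and 659 CPM of *Htr2c*, 112, 161, 164 and 138 CPM of *Cadps2*, 407, 416, 461 and 412 CPM of *Sorcs1* and 294, 264, 262 and 215 CPM of *Plcl1*. DESeq2 called only *Sorcs1* (adjusted p = 0.00643) and gave 0.197 for the other 3. Without control 1 the edgeR adjusted p was 0.142 for *Htr2c* and 0.769 for *Plcl1*, without control 2 it was 0.217 for *Htr2c*, 0.207 for *Sorcs1* and 0.737 for *Cadps2*, and without either AgRP-Gq;POMC-Gi library no call remained. Most *Htr2c* UMIs came from 3 nuclei and 18 of the 23 *Sorcs1* UMIs in control 1 from 1 nucleus. *Cadps2* was found more often in *Sctr* than in *Gfral* nuclei. The share of nuclei with a *Sctr* UMI was 57.1%, 17.65%, 47.5% and 29.7% in the 4 libraries. The part of these values in the results was not tested.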

How the results depend on the processing

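The median log2 fold change of all genes between the groups turned from 0.10 to -0.06 with library sizes and -0.0078 with filterByExpr. The balance of differences at an unadjusted p under 0.05 also turned, from 383 genes higher and 226 lower to 216 and 335 with library sizes, 74 and 134 without AgRP-Gq;POMC-Gi 1 and 96 and 161 without AgRP-Gq;POMC-Gi 2, and with filterByExpr 135 of 281 were higher. Genes at least 4-fold higher in the cluster numbered 67, and 30 of them remained with a pseudocount of 20 CPM. With nuclei thinned to 2000 UMIs there were 25, of which 22 were among the 67, and with each library left out 56 to 79. Lower genes numbered 156, compared with 66 at a pseudocount of 20 CPM, 79 after thinning (47 of the same genes) and 121 to 174 with a library left out. As a share of all kept nuclei the cluster made up 0.256%, and with a library left out it made up 0.690 to 0.934% of neurons. The ratio of its mean shares between the groups, 2.32, was 1.69 to 3.70 with a library left out (added after seeing the data). The share of nuclei with a *Gfral* UMI was 24.2% after thinning and 31.1 to 35.1% with a library left out. The counts behind the control libraries (7 and 17 nuclei) limit every comparison between groups.

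The 6 genes called between the groups became 10 without a filter on genes and 0 with DESeq2 (67 at an unadjusted p under 0.05). Leaving out a library gave 0 to 26 calls, 0 without either AgRP-Gq;POMC-Gi library, where the lone sample of a group is assumed to vary like the other group, 7 without control 1 and 26 without control 2. The interaction test called 4 genes, compared with 1 with DESeq2, 8 without a filter, 9 with filterByExpr and 0 to 3 with a library left out (3 without control 1, of which *Sorcs1* and *Cadps2* were among the 4, 1 without control 2, which was *Plcl1*, and 0 without either AgRP-Gq;POMC-Gi library). All 6 genes lost the call under DESeq2, where their adjusted p ran from 0.0553 for *Plcl1* to 1.0 for *Prkg1*, and each kept its direction under the alternatives run. With the replicate number as a block 16 genes were called. The labels tie the numbers to no shared animal, litter or day. Deviations of same-numbered libraries correlated at r = 0.0875 over 3749 genes, although *Ttr* was far higher in replicate 2 than in replicate 1 of both groups, so whether a number marks a shared preparation cannot be told.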

Other observations

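*Agrp*, the peptide gene of the hypothalamic neurons manipulated in this study, was found in 48 of the cluster's 101 nuclei (29.5, 95.1, 110 and 102 CPM in the 4 libraries) and in 50.8% of other neurons, compared with 4.66% of oligodendrocytes, so its counts did not set the cluster apart from other neurons. Whether the *Agrp* UMIs stand for expression of the gene in hindbrain neurons was not tested. They do not show that Cre or the activating receptor was present in these nuclei. *Pomc* had a UMI in 4 of 101 nuclei.

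The nucleus with both receptors had 5 UMIs of *Gfral* and 1 of *Sctr* at a depth of 4110 UMIs. Gm29398 had a UMI in 23 of 101 nuclei compared with 0.0402% of other neurons (59.1, 87.8, 116 and 117 CPM in the 4 libraries). It was below the detection minimum for the leading genes and was singled out after its values had been seen. It was found in 17 of 36 *Sctr* nuclei, 4 of 33 *Gfral* nuclei and 2 of 31 with neither.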
